A study of Mus musculus with 8 samples.

Results

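Clcn1, Ano5 and 8 related chloride channel genes were examined in mouse heart RNA. The set holds 6 genes of the ClC family (Clcn1, Clcn2, Clcn3, Clcn4, Clcn6 and Clcn7) and 4 of the anoctamin family (Ano1, Ano5, Ano6 and Ano10), 10 of the 55471 genes in the count files. The members were chosen by measured values of this same comparison. Clcn1 and Ano5 had been picked for the size of their difference between the genotypes, and the other 8 were listed as their relatives. The differences between genotypes in the 10 genes are therefore given below as a description, and no p-value is given for them. Where they are counted by the thresholds of the fit, the share of all genes past the same thresholds stands beside the count and nothing is read from it.

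Hearts of 4 wild-type (WT) mice and 4 TAZG197V mice were sequenced. The TAZG197V mice carry a missense point mutation in the X-linked gene Taz, corresponding to a mutation of patients with Barth syndrome. Taz encodes Tafazzin, the mitochondrial enzyme that remodels cardiolipin. The mice were 14 weeks old and untreated, and the mutation was introduced with CRISPR/Cas9 into C57BL/6N zygotes, after which carriers were bred with C57BL6/J mice. The breeding account in the labels and in the study's methods speaks of homozygous offspring, while the study also states that it used hemizygous males only. Whether the animals descend from 1 founder, and the genetic background of the WT mice, are not given in the sources used here. The mutation is present in every tissue, and each library came from a small piece of heart whose region the labels do not name.

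ClC proteins are dimers in which each subunit has its own transport pathway. Some members are chloride channels of the surface membrane, while others exchange chloride for protons in endosomes and lysosomes. Clcn1 is known as the gene of the main resting chloride conductance of skeletal muscle, and its loss causes myotonia, a delayed relaxation of muscle. Anoctamins, also called TMEM16 proteins, are calcium-activated chloride channels or calcium-dependent lipid scramblases, which move phospholipids between the leaflets of a membrane. Mutations of Ano5 cause a limb girdle muscular dystrophy. In working heart muscle the resting conductance is carried mostly by potassium, and chloride currents are a smaller part.

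The upstream sequences of Clcn1 and Ano5 are shown because these genes had the greatest differences between genotypes of the 10. Each is the 250 bases directly before the RefSeq start of the gene on GRCm38.p6, the assembly that mm10 names, written 5′ to 3′ on the strand of the gene. The Clcn1 window is chr6:42286435-42286684 and the Ano5 window is chr7:51510779-51511028, both on the plus strand. Capitals mark matches to the E-box (CANNTG, the element read by basic helix-loop-helix factors such as MyoD) and to the MEF2 element of muscle genes.
Clcn1: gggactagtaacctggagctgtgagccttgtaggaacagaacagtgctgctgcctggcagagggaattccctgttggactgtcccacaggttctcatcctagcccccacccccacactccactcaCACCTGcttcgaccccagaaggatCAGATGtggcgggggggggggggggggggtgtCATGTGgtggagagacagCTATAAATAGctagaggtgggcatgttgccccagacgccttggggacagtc
Ano5: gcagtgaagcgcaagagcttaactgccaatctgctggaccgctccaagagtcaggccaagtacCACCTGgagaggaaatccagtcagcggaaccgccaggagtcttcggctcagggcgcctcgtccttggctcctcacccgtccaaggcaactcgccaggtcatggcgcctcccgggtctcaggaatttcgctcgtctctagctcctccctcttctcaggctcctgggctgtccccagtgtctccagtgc

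The Clcn1 window held 3 E-boxes, starting 125, 101 and 69 bases before the start site. It also held 1 match to the MEF2 element, CTATAAATAG, starting 51 bases before the start, and this match contains the TATA box letters TATAAA. The Ano5 window held 1 E-box, with the letters CACCTG, at 187 bases, and no MEF2 match. At least 1 E-box was found in 66.2% of 32851 such windows of 27025 genes, at least 3 in 12.2%, a MEF2 match in 2.92% and TATAAA in 12.4%. Clcn1 had 3 CpG dinucleotides in its window and Ano5 had 13, where the median window had 6. All 10 members had a window, 13 in all. The Clcn6 window also held 3 E-boxes, 1 of the Clcn4 windows and the Ano10 window held 2 each, and the other members' windows held at most 1. A MEF2 match was also found in 1 of the Clcn3 windows, and the GC box GGGCGG was absent from 6 of the 13, those of Clcn1 and Ano5, both of Clcn7 and 1 each of Clcn3 and Clcn4. It was present 1 time in 4 windows, of Clcn2, Clcn3, Clcn4 and Clcn6, and 5, 4 and 2 times in those of Ano10, Ano1 and Ano6. A GC box was found in 32.7% of all windows. None of the 13 windows held a CArG element, the site of serum response factor, which 1.47% of all windows held. These matches describe letters only.

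Total counts ranged from 23055689 to 36301031 per library. Levels are given as CPM, counts relative to the library size after TMM scaling, which matches libraries on the bulk of their genes, and values after ± are SD over the mice of a genotype (n = 4 each). Log2 fold changes are TAZG197V over WT and come, with their standard errors (SE), from an edgeR fit across all 15084 genes tested, with 2 surrogate variables for unmeasured variation. A gene was called when its Benjamini-Hochberg adjusted p was under 0.05, its change was at least 15% and its mean scaled count was at least 50. Taz was at 60.9 ± 2.36 CPM in WT and 47.3 ± 2.60 CPM in TAZG197V, and these counts hold no information on the edited base. Sequencing lane 7 held libraries 1 and 2 of each genotype and lane 8 held libraries 3 and 4. Some libraries stood apart in markers of other cell types. The summed level of 6 red cell genes was 55072 CPM in WT 4 and 227 to 1065 CPM in the other 7 libraries. That of 7 brain and nerve genes reached 91.4 CPM in WT 4 and 186 CPM in TAZG197V 4, against 10.6 to 21.9 CPM elsewhere, and that of 8 atrial genes was 1198 CPM in WT 2 and 20.4 to 137 CPM elsewhere. The defining markers of heart muscle were present in every library, as 6 cardiomyocyte genes summed to 48649 to 53520 CPM in WT and 39364 to 43940 CPM in TAZG197V. Of the 6, 4 were called lower, beside 15.1% of all genes tested.

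Clcn1 (ENSMUSG00000029862, chromosome 6, 42286685 to 42315756, plus strand, mm10) gave 526, 514, 282 and 176 counts in WT 1 to WT 4. In TAZG197V 1 to TAZG197V 4 it gave 28, 27, 18 and 18 counts. Scaled to library size, this was 17.8, 14.1, 11.0 and 7.86 CPM in WT and 1.02, 0.729, 0.581 and 0.660 CPM in TAZG197V. Every TAZG197V library lay below every WT library, and the highest of them was far below WT 4, the lowest of WT. The mean fell from 12.7 ± 4.26 CPM to 0.747 ± 0.190 CPM, which left 5.89% of the WT level. The fitted log2 fold change was -4.01 (SE 0.252) and ranged from -4.26 to -3.75 over 17 alternative fits. Within lane 7 the WT mean was 18.3 times the TAZG197V mean, and within lane 8 it was 15.2 times. Of the exon bases of Clcn1, 8.20% overlap the oppositely oriented gene Fam131b, and reads there cannot be told apart if strand was not used in counting.

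Ano5 (ENSMUSG00000055489, chromosome 7, 51511029 to 51598709, plus strand) was a much rarer transcript. It gave 70, 129, 127 and 133 counts in WT 1 to WT 4 and 9, 7, 8 and 7 counts in TAZG197V 1 to TAZG197V 4. This was 2.37, 3.54, 4.93 and 5.94 CPM in WT against 0.327, 0.189, 0.258 and 0.257 CPM in TAZG197V. The groups did not overlap, and in CPM the TAZG197V libraries, at 7 to 9 counts, were close to each other while the WT libraries were spread out. Relative to the mean, the SD was 21.9% in TAZG197V and 37.3% in WT. The mean fell from 4.20 ± 1.56 CPM to 0.258 ± 0.0564 CPM, which left 6.14% of the WT level, with a log2 fold change of -4.05 (SE 0.327) that ranged from -4.30 to -3.80 over the alternatives. A count of 7 has an exact Poisson interval (95%, counting error only) of 2.81 to 14.4, so the remaining level of Ano5 is known only roughly. Within lane 7 the WT mean was 11.5 times the TAZG197V mean, and within lane 8 it was 21.1 times. In a bulk sample, fewer cells that make a transcript and less transcript per cell cannot be told apart, and this holds for each gene described here.

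Of all 15084 genes tested, 10 had a log2 fold change of -4 or lower, or 0.0663%, and Clcn1 and Ano5 are 2 of these 10 because the rule picked them so. The genes differed in their spread among WT mice. Clcn1 was highest in WT 1 and lowest in WT 4, whereas Ano5 was lowest in WT 1 and highest in WT 4. The coefficient of variation among WT mice was 33.6% for Clcn1 and 37.3% for Ano5, and it was 1.00% for Clcn4 and 6.91% for Clcn3.

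**Figure D1:**
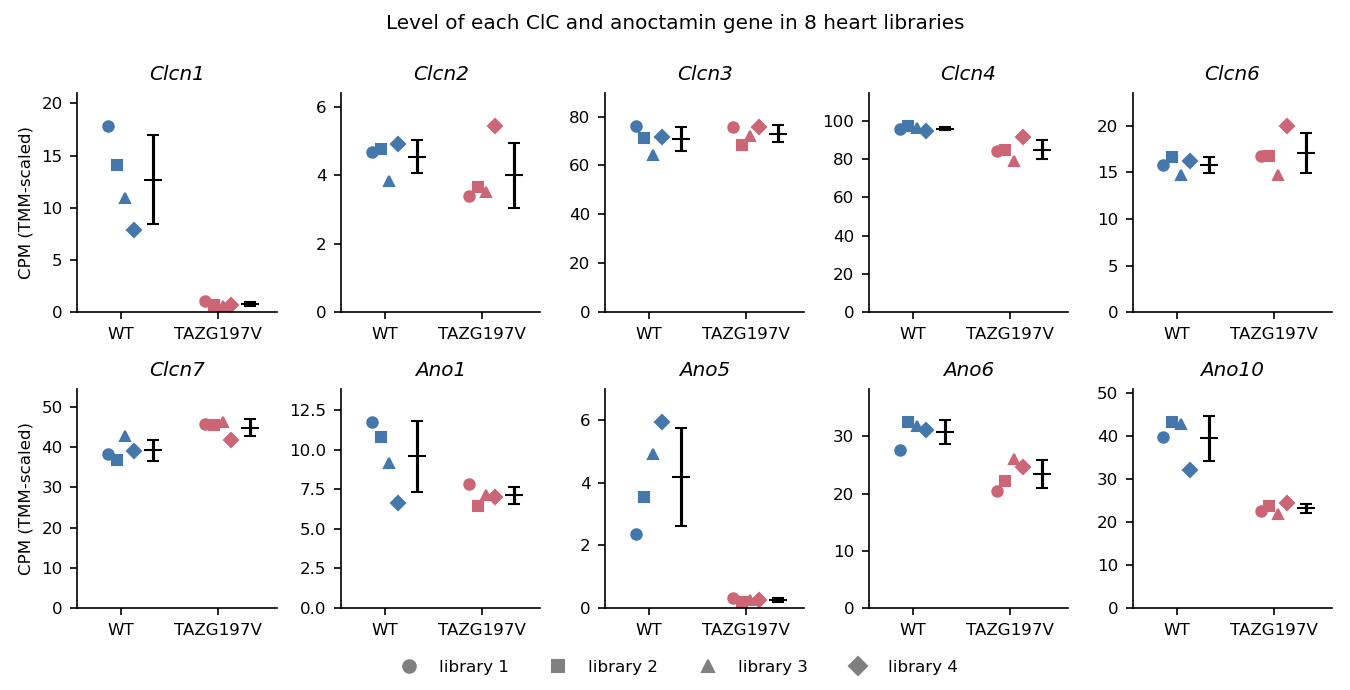
Level of each of the 10 genes in every library (CPM, TMM-scaled, each panel on its own linear axis from 0), with a marker shape per library number and a black bar for the mean ± SD of each genotype (n = 4). The TAZG197V points of Clcn1 (0.581 to 1.02 CPM) and Ano5 (0.189 to 0.327 CPM) lie near 0 and far below WT, those of Clcn4, Ano6 and Ano10 lie below WT by less, and those of the other 5 genes overlap with WT.

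Among the surface membrane ClC channels, Clcn2 (ENSMUSG00000022843), the broadly expressed channel that opens on hyperpolarization, was a low transcript in both genotypes. It was at 4.67, 4.75, 3.84 and 4.91 CPM in WT and at 3.38, 3.64, 3.52 and 5.43 CPM in TAZG197V. In TAZG197V, 3 libraries lay below WT and TAZG197V 4 lay above, so the groups overlapped. The log2 fold change was -0.19 (SE 0.121) and ranged from -0.34 to -0.11 over the alternatives.

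Among the ClC genes of the set, the endosomal and lysosomal exchangers had the higher mean CPM and differed little between genotypes. The WT ranges of Clcn6 and Clcn1 overlapped. Clcn5, an endosomal exchanger outside the set, was below Clcn1 in WT. Clcn4 (ENSMUSG00000000605), an endosomal exchanger that pairs with the Clcn3 product, was at 95.7, 97.2, 96.4 and 95 CPM in WT and at 84.2, 85.1, 79.1 and 91.4 CPM in TAZG197V. No TAZG197V library reached the lowest WT library, but the fitted log2 fold change of -0.17 (SE 0.053) amounts to less than the 15% change set for a call. Of its exon bases, 11.5% overlap Gm45631. Clcn7 (ENSMUSG00000036636), the lysosomal exchanger whose loss causes osteopetrosis, was at 38.3, 36.9, 42.9 and 39.1 CPM in WT and 45.8, 45.7, 46.3 and 41.9 CPM in TAZG197V. The groups overlapped only through WT 3 and TAZG197V 4, and the log2 fold change was 0.18 (SE 0.055).

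Clcn3 (ENSMUSG00000004319), an exchanger of endosomes and synaptic vesicles, was at 76.0, 71.2, 64.2 and 71.7 CPM in WT and 75.7, 68.4, 72.2 and 75.9 CPM in TAZG197V. Clcn6 (ENSMUSG00000029016), an exchanger of late endosomes, was at 15.8, 16.7, 14.7 and 16.3 CPM in WT and 16.8, 16.8, 14.7 and 20 CPM in TAZG197V. All TAZG197V libraries lay within the WT range for Clcn3, whereas for Clcn6 TAZG197V 1, 2 and 4 lay above every WT library, the first 2 of them narrowly, and TAZG197V 3 lay within the WT range. The log2 fold changes were 0.05 (SE 0.066) for Clcn3 and 0.12 (SE 0.071) for Clcn6.

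Ano10 is mutated in a recessive cerebellar ataxia. Ano10 (ENSMUSG00000037949) was at 39.7, 43.2, 42.8 and 32 CPM in WT and 22.6, 23.8, 21.8 and 24.3 CPM in TAZG197V. No TAZG197V library reached the lowest WT library, WT 4, and the TAZG197V mean was 58.6% of the WT mean. The log2 fold change was -0.73 (SE 0.085), between -0.88 and -0.67 over the alternatives.

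Ano6 (ENSMUSG00000064210), the calcium-dependent scramblase that exposes phosphatidylserine on platelets, was at 27.6, 32.5, 31.7 and 31.1 CPM in WT and 20.5, 22.3, 26 and 24.6 CPM in TAZG197V. The groups did not overlap, although TAZG197V 3 and WT 1 were close. The log2 fold change was -0.39 (SE 0.093), between -0.44 and -0.33 over the alternatives. Ano1 (ENSMUSG00000031075), the calcium-activated chloride channel of smooth muscle and glands, was at 11.7, 10.8, 9.17 and 6.61 CPM in WT and 7.81, 6.45, 7.16 and 7.00 CPM in TAZG197V. WT 4 lay within the TAZG197V range, so the groups overlapped, and the log2 fold change was -0.36 (SE 0.140). Over the alternatives the log2 fold change of Ano1 ranged from -0.58 to -0.21. Without WT 4 it was -0.58, and without TAZG197V 4 it was -0.54. Within lane 7 the WT mean of Ano1 was 1.58 times the TAZG197V mean, against 1.11 times within lane 8.

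Counted by the thresholds of the fit, 4 of the 10 genes were called lower (Clcn1, Ano5, Ano6 and Ano10), 0 were called higher and 6 were not called. Over all genes tested 33.5% were called, 15.1% lower and 18.5% higher. In 5 of the 10 genes every TAZG197V library was below every WT library and in 0 genes every one was above, against 13.9% and 19.3% of all genes. Since this contrast chose the members, nothing is read from these counts. The median log2 fold change was -0.06 over the 6 ClC members and -0.56 over the 4 anoctamins, beside -0.01 over all genes. The count was 3 without TAZG197V 2, which took out Ano6, and 7 without TAZG197V 4, which added Ano1 and Clcn4 as lower and Clcn7 as higher. It was also 7 with both number 4 libraries left out.

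**Figure D2:**
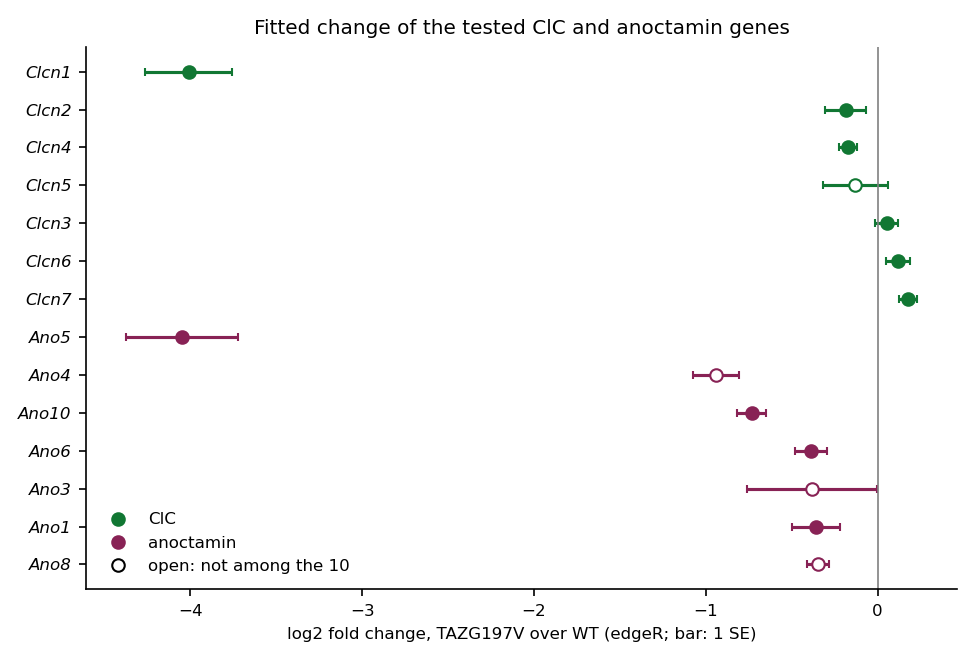
Fitted log2 fold change (TAZG197V over WT, edgeR) of 7 ClC and 7 anoctamin genes, with bars of 1 SE, and open points for genes outside the 10. Clcn1 and Ano5 stand near -4, the other anoctamins lie between -0.94 and -0.35, and the other ClC genes lie around 0.

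Per length of exon, the highest of the 10 genes in WT heart were intracellular exchangers and Ano10. Exon length here is the union of all annotated exons, 17071 bases for Clcn3 and 5291 for Clcn7. The order therefore depends on the annotation, and by CPM alone Clcn3 (70.8) stood above Clcn7 (39.3) in WT. Clcn4 was highest at 11.2 ± 0.112 CPM per kilobase of exon (SD, n = 4), and its WT range did not overlap that of the next gene. Clcn7 followed at 7.43 ± 0.489 and Ano10 at 6.67 ± 0.876 CPM per kilobase, and the WT ranges of this pair overlapped. Clcn3 was at 4.15 ± 0.286 CPM per kilobase, apart from its neighbours in the order. Clcn6 at 2.67 ± 0.144, Ano6 at 2.50 ± 0.176, Clcn1 at 2.34 ± 0.785 and Ano1 at 1.53 ± 0.361 CPM per kilobase overlapped each with the next. Clcn2 at 0.755 ± 0.0793 and Ano5 at 0.537 ± 0.200 CPM per kilobase were lowest and overlapped with each other. In TAZG197V, Clcn1 stood at 0.138 ± 0.0350 and Ano5 at 0.0330 ± 0.00721 CPM per kilobase.

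**Figure D3:**
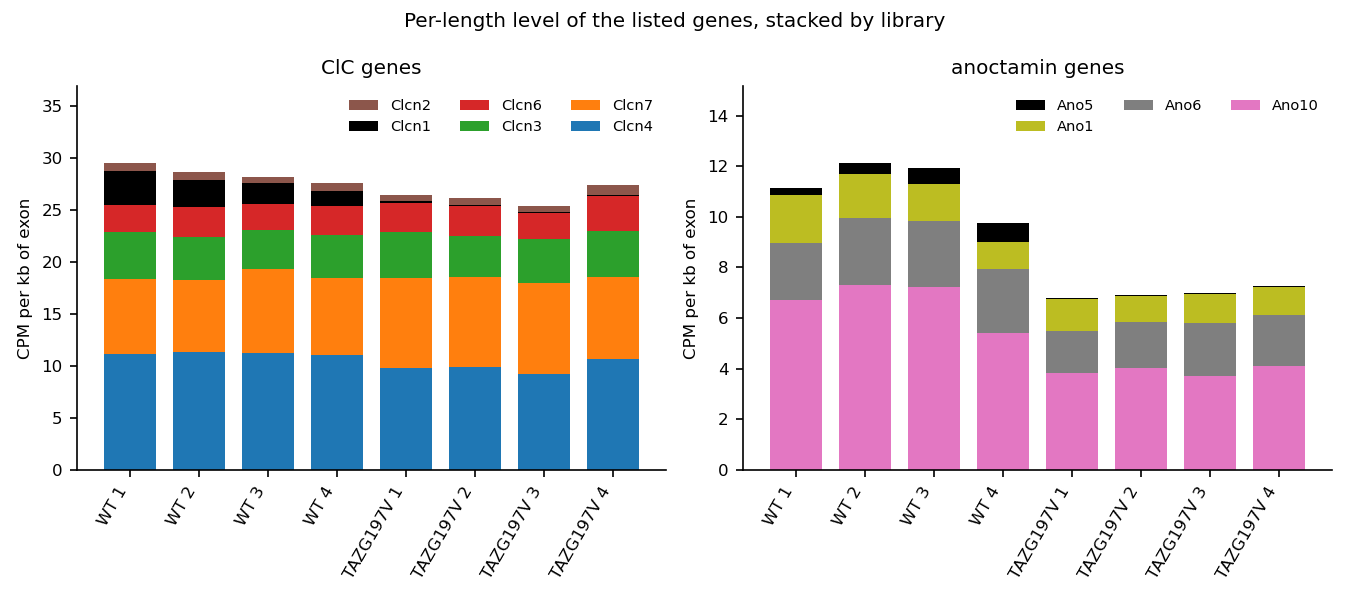
Level per length (CPM per kilobase of exon) of the 6 ClC members (left) and the 4 anoctamin members (right), stacked for each of the 8 libraries on linear axes from 0. Clcn4, at a WT mean of 11.2 CPM per kilobase, and Ano10, at 6.67, form the thickest layers in WT, and the black layers of Clcn1 and Ano5 shrink to thin lines in TAZG197V at means of 0.138 and 0.0330 CPM per kilobase.

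Clcn1 was a minor part of the ClC transcripts in WT heart and a trace in TAZG197V. Of the summed level per length of 7 ClC genes, the 6 members and Clcn5, Clcn1 made up 8.02% ± 2.50 in WT, from 5.14% to 11.0%, and 0.515% ± 0.129 in TAZG197V. These shares, and those of the anoctamins below, rest on the same annotated exon lengths. The sum itself was 28.9 ± 0.759 CPM per kilobase in WT and 26.7 ± 0.844 CPM per kilobase in TAZG197V. Ano5 made up 3.31% ± 1.42 of the 10 anoctamin genes in WT and 0.307% ± 0.0696 in TAZG197V. The anoctamin sum was 14.9 to 17.1 CPM per kilobase in WT and 10.5 to 11.2 CPM per kilobase in TAZG197V, without overlap. Of the 4 anoctamin members, Ano10 held the greatest share of that sum, at 40.4% in WT and 36.4% in TAZG197V.

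Of 7 further genes of both families, 4 were expressed enough to test. These genes and the lists that follow were drawn up with earlier results of these data known. Ano4 fell from 9.75 ± 1.12 to 5.08 ± 0.617 CPM, with a log2 fold change of -0.94 (SE 0.135) and an edgeR adjusted p of 0.00108. Ano8, which tethers the endoplasmic reticulum to the surface membrane, fell from 25.7 ± 1.01 to 20.3 ± 0.925 CPM, with a log2 fold change of -0.35 (SE 0.062) and an edgeR adjusted p of 0.00321. Neither gene overlapped between genotypes, and both were called under all 17 alternatives. Ano3 had a log2 fold change of -0.38 (edgeR adjusted p = 0.448) and Clcn5, the endosomal exchanger of the kidney tubule, one of -0.13 (edgeR adjusted p = 0.612). Ano2, Ano7 and Ano9 reached at most 4 counts in any library, so no difference was detectable at this depth.

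Of 3 tested genes for partner subunits of ClC proteins, edgeR and DESeq2 each called 0, and 1 had an unadjusted edgeR p under 0.05. Over all genes tested, edgeR called 33.5%, and 7271 of 15084 had an unadjusted edgeR p under 0.05. Ostm1, the obligate partner of the Clcn7 product in lysosomes, was at 31 ± 5.50 CPM in WT and 32.6 ± 2.18 CPM in TAZG197V, with a log2 fold change of 0.03 and an edgeR adjusted p of 0.804. Tmem9b had a log2 fold change of 0.17 with an edgeR adjusted p of 0.0564, and Tmem9 one of 0.20 with an edgeR adjusted p of 0.173. In each of these 2 genes, 3 of the 4 TAZG197V libraries lay above every WT library. Ostm1, Tmem9b and Tmem9 are named outside the rule, after their values were seen.

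Of 16 other chloride channel genes tested, 5 rose, 3 fell and 8 did not pass, where 18.5% of all genes tested were called higher and 15.1% lower. Without TAZG197V 2 the calls went from 8 to 4, with 2 higher and 2 lower, and without TAZG197V 1 to 5, and 4 of the 8 calls held in all 17 alternatives. Lrrc8d, a subunit of the volume-regulated anion channel, rose from 10.5 ± 1.89 to 26.2 ± 1.94 CPM, with a log2 fold change of 1.29 (SE 0.111) and an edgeR adjusted p of 9.46e-05. All 4 TAZG197V libraries lay above WT. Another subunit of that channel, Lrrc8c, fell from 33.8 ± 3.49 to 25.7 ± 1.41 CPM, with a log2 fold change of -0.36 and an edgeR adjusted p of 0.0047. Lrrc8a, the subunit that every such channel needs, had a log2 fold change of 0.32 and an edgeR adjusted p of 0.0442, but 68.3% of its exon bases are shared with other gene models, its groups overlapped and its call held in 2 of 17 alternatives. Clic4, of the chloride intracellular channel family, rose from 379 ± 14.4 to 522 ± 46.3 CPM, or 0.44 on the log2 scale (edgeR adjusted p = 0.00134). Clic5, of the same family, rose from 357 ± 67.0 to 506 ± 60.4 CPM, or 0.52 on the log2 scale (edgeR adjusted p = 0.0135), with overlapping groups. Its adjusted p passed the threshold in 14 of 17 alternatives and not when WT 1, TAZG197V 1 or TAZG197V 2 was left out. Lrrc8c and Lrrc8a are named here outside the rule for named genes, after their values were seen.

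The next list held 8 chloride cotransporters and exchangers and 3 kinases that regulate them, Wnk1, Stk39 and Oxsr1. Of the 8 transporters 2 were called higher, 3 lower and 3 neither, against 18.5% higher and 15.1% lower over all genes. The main edgeR fit called 0 of the 3 kinases, with log2 fold changes of -0.23, 0.14 and -0.13 (edgeR adjusted p = 0.0945, 0.21 and 0.102). Wnk1 was called lower in 2 of 17 alternatives, under DESeq2 and without TAZG197V 1. Without WT 1 or without TAZG197V 4, 3 of the 11 genes were called in place of 5, and 2 of the 5 calls held in all 17 alternatives. The kinases are named outside the rule, after their values were seen. Slc26a6, an exchanger of chloride with bicarbonate in heart muscle cells, fell from 17.0 ± 2.44 to 9.77 ± 0.609 CPM, with a log2 fold change of -0.80 and an edgeR adjusted p of 0.000915. Slc12a4, a potassium-chloride cotransporter, rose (log2 fold change 0.37, edgeR adjusted p = 0.00496), while its relative Slc12a7 fell (log2 fold change -0.32, edgeR adjusted p = 0.0146) with overlapping groups, and not when TAZG197V 4 was left out. The median log2 fold change was -0.18 over the 11 genes and 0.16 over the 16 channels.

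Clcn1 transcripts are known to be spliced under the control of MBNL, CELF and RBFOX proteins, and mis-splicing of Clcn1 underlies the myotonia of myotonic dystrophy. Of 7 genes of these proteins tested, 1 fell and 6 did not pass, with 15.1% of all genes called lower, and without WT 4 or without TAZG197V 4 the calls were 2. Rbfox1 fell from 35.0 ± 6.96 to 15.1 ± 4.80 CPM, with a log2 fold change of -1.24 (SE 0.11) and an edgeR adjusted p of 0.000105, and it was called under all 17 alternatives. Mbnl1 had a log2 fold change of -0.05 and Celf1 one of -0.03, and neither passed (edgeR adjusted p = 0.627 and 0.702, both named outside the rule after their values were seen). Counts per gene carry no information on which exons of Clcn1 were joined.

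Ano5 has been linked to repair of the muscle surface membrane, together with dysferlin, calpains and annexins. Of 16 repair genes tested, 7 fell, 2 rose and 7 did not pass, beside 15.1% of all genes called lower and 18.5% higher, and the median of the 16 log2 fold changes was -0.26. With TAZG197V 2 left out, 4 of them were called in place of 9, with 3 lower and 1 higher, and without TAZG197V 1 it was also 4. Of the 9 calls, 3 held in all 17 alternatives. Syt7, a calcium sensor of lysosome fusion with the surface membrane, fell from 45.9 ± 5.88 to 23.1 ± 6.09 CPM, with a log2 fold change of -1.02 and an edgeR adjusted p of 0.00208. Capn1, a calcium-activated protease, fell (log2 fold change -0.65, edgeR adjusted p = 0.00136), and so did Anxa1, a phospholipid-binding annexin (log2 fold change -0.53, edgeR adjusted p = 0.0185), the latter not when TAZG197V 1 or TAZG197V 2 was left out. Dysf itself, the gene of dysferlin, had a log2 fold change of -0.16 and did not pass (edgeR adjusted p = 0.0785, named outside the rule after its value was seen).

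Scramblases and flippases move lipids between membrane leaflets, as Ano6 does. Of 10 such genes tested, 1 rose and 2 fell, where the shares over all genes were 18.5% and 15.1%. Atp11a, a flippase of phosphatidylserine, rose from 141 ± 7.70 to 224 ± 24.7 CPM, with a log2 fold change of 0.68 and an edgeR adjusted p of 0.000481. Plscr1 fell (log2 fold change -0.52, edgeR adjusted p = 0.00717), and Atp8a1 fell with overlapping groups (log2 fold change -0.25, edgeR adjusted p = 0.0337) and kept its call in 9 of 17 alternatives. Over all 7 lists, 67 genes were tested, of which 10 were called higher and 18 lower, against 18.5% and 15.1% of all genes. Their median log2 fold change was -0.13. When TAZG197V 2 was left out, 17 of the 67 were called in place of 28.

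**Figure D4:**
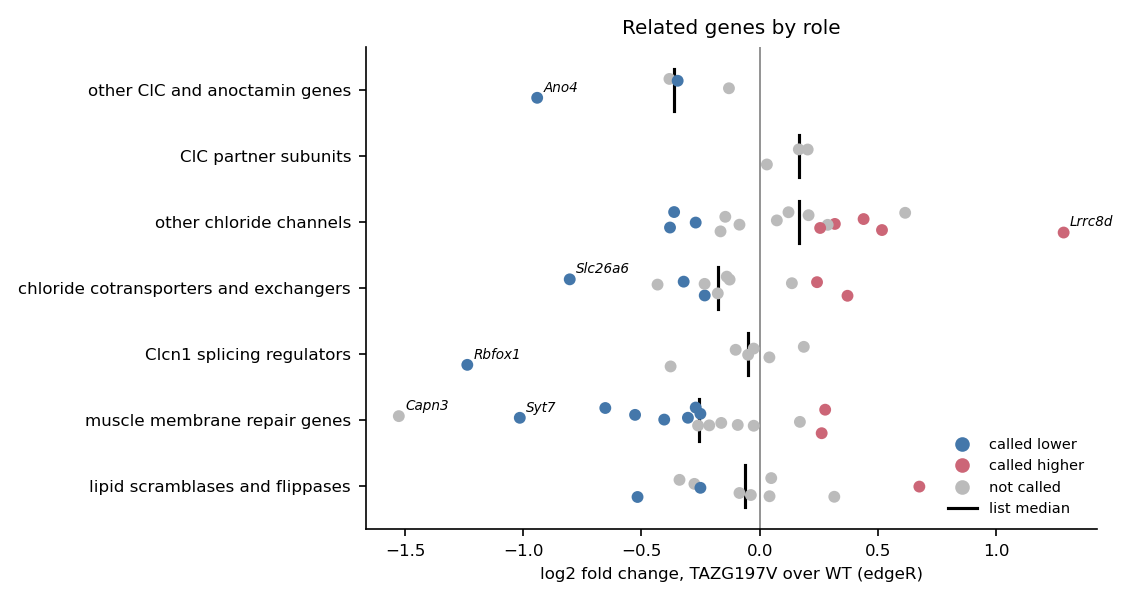
Log2 fold change (TAZG197V over WT, edgeR) of each tested gene of 7 related lists, colored by call, with a black bar at the median of each list. Points lie on both sides of 0 in 5 of the 7 lists, with Lrrc8d at 1.29 and Rbfox1 at -1.24 among the genes farthest from 0.

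The genes with the profile nearest to that of Clcn1 over the 8 libraries were found by the root mean square difference of log2 CPM, each gene centered on its own mean, among 12346 genes with a mean scaled count of at least 50. They were Gm34302 (0.349), Lrrc15 (0.406), Cpn2 (0.558), Gm10635 (0.562) and Gm24474 (0.617). Lrrc15, a membrane protein with leucine-rich repeats, was at 38.5 ± 9.14 CPM in WT and 4.13 ± 1.52 CPM in TAZG197V. The nearest to Ano5 were Cngb3 (0.549), Gm28979 (0.575), Gm10635 (0.583), Sbk2 (0.595) and Scn4a (0.613). Scn4a, the sodium channel of skeletal muscle, was at 35.0 ± 8.41 CPM in WT and 5.43 ± 0.965 CPM in TAZG197V, and Cngb3, a cyclic nucleotide-gated channel subunit of cone photoreceptors, was at 5.43 ± 3.10 and 0.512 ± 0.167 CPM. Clcn1 and Ano5 differed from each other by 0.691. Gm10635 was the gene that both lists held. Since most of each profile is the difference between genotypes, these genes are those with a like fall, and the likeness is a description.

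**Figure D5:**
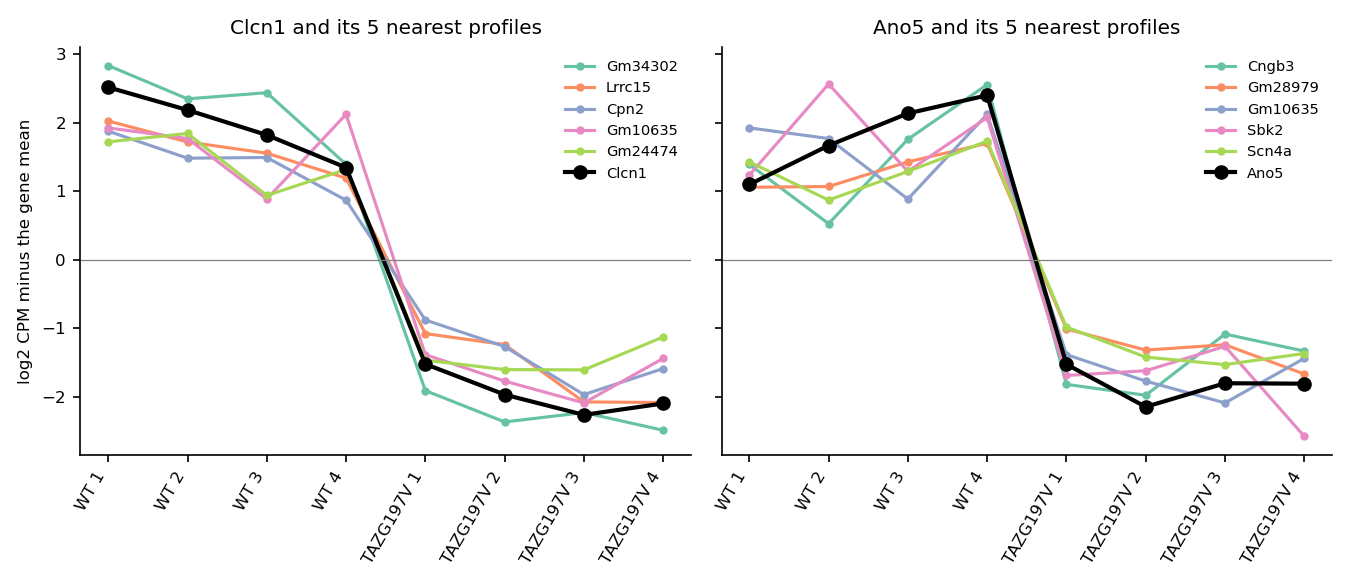
Log2 CPM (prior count 2) minus each gene's mean in the 8 libraries, for Clcn1 (left, black) and Ano5 (right, black) with the 5 genes nearest to each in color. The lines only join the points of a gene, and in both panels all genes stand above 0 in WT and below 0 in TAZG197V.

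The genes beside Clcn1 and Ano5 on their chromosomes, named outside the rule for named genes, did not pass the test. Casp2 had a log2 fold change of -0.18 (edgeR adjusted p = 0.204), Fam131b, which shares exon bases with Clcn1, one of -0.06 (edgeR adjusted p = 0.878), and Zyx one of -0.06 (edgeR adjusted p = 0.703). On the side of Ano5, Fancf had a log2 fold change of -0.21 (edgeR adjusted p = 0.410), and Nell1 and Slc17a6 were too low to test.

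Because Clcn1 and Ano5 are known from skeletal muscle and other cell types could enter the samples, marker levels were set beside them. Of 14 skeletal muscle markers, 9 were at 1 CPM or below in every library, and the fast myosin genes Myh1, Myh2 and Myh4 reached at most 0.16 CPM. The skeletal muscle sum was 48.0, 72.0, 30.3 and 19.9 CPM in WT 1 to WT 4 and 20.4 to 24.7 CPM in TAZG197V, most of it from Cacna1s and Mybpc2. Mybpc2, at 27.4, 57.2, 13.4 and 3.53 CPM in WT and 2.52 to 8.10 CPM in TAZG197V, was the 1 marker of the list that was called, as lower, and it lost that call in 7 of the 17 alternatives, among them those without WT 1, WT 2, TAZG197V 1, TAZG197V 2 or TAZG197V 3. Tnni2, the fast skeletal troponin I, was at 1.52, 0.907, 1.32 and 0.848 CPM in WT and 0.145, 0.378, 0.420 and 0.147 CPM in TAZG197V. Its groups did not overlap (log2 fold change -2.15, edgeR adjusted p = 0.00116), but its mean scaled count of 20.9 was too low for a call. Tnnt3, the fast skeletal troponin T, was at 0.311 to 0.474 CPM in WT and 0.0540 to 0.293 CPM in TAZG197V, and Ryr1, the skeletal muscle calcium release channel, at 0.220 to 0.583 and 0.0363 to 0.293 CPM, both too low to test. In 12 of the 14 markers the genotypes overlapped, Mybpc2 and Ryr1 among them, and in 2, Tnni2 and Tnnt3, all TAZG197V libraries lay below WT. Over all genes tested, 13.9% had all TAZG197V libraries below WT, and 15.1% were called lower. Another marker, Pvalb, was at 1.12, 0.797, 0.117 and 0 CPM in WT 1 to WT 4. In TAZG197V, Pvalb was at 0.581, 0, 0.0968 and 0.0367 CPM, and it was too low to test. Cacna1s, the skeletal muscle calcium channel subunit, was at 15.7, 11.0, 12.6 and 12.7 CPM in WT and 15.7, 14.8, 15.8 and 14.8 CPM in TAZG197V (log2 fold change 0.21, edgeR adjusted p = 0.15). Mylpf, a fast skeletal myosin light chain, was at 0.522 to 1.03 CPM in WT and 0.420 to 0.783 CPM in TAZG197V (log2 fold change -0.29, edgeR adjusted p = 0.454). Atp2a1, the calcium pump of fast fibers, was at 0.440 to 0.687 and 0.147 to 0.509 CPM and did not pass (log2 fold change -0.65, edgeR adjusted p = 0.179), and Actn3, a fast-fiber actinin, was at 0.192 to 0.357 and 0.145 to 0.297 CPM and too low to test. The part of skeletal muscle RNA in the levels of Clcn1 and Ano5 was not tested.

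Beside the marker counts that follow stand the shares over all genes tested, 33.5% called, 15.1% lower and 18.5% higher. An unadjusted edgeR p under 0.05 was found in 7271 of the 15084 genes tested. Of 8 atrial markers, 3 were called lower, namely Myl4, Myl7 and Sbk2. Sbk2 was called in all 17 alternatives, whereas Myl4 and Myl7 were each called in 9 and not without WT 1, WT 2, TAZG197V 1, TAZG197V 2 or TAZG197V 3. The atrial sum was 20.4 to 1198 CPM in WT and 35.5 to 135 CPM in TAZG197V. The fibroblast sum of 6 genes was 1010 to 1637 CPM in WT and 688 to 1009 CPM in TAZG197V with 3 called lower, and the endothelial sum of 6 was 688 to 955 and 561 to 715 CPM with 2 called lower. The smooth muscle sum of 6 genes was 320 to 437 CPM in WT and 315 to 506 CPM in TAZG197V, with 1 called higher and 5 lower. The ventricular sum of 4 genes was 9486 to 14785 and 9988 to 11330 CPM with 1 called lower, the macrophage sum of 6 was 188 to 219 and 174 to 279 CPM with 0 called by edgeR or DESeq2 and 1 at an unadjusted edgeR p under 0.05, and the adipocyte sum of 6 was 417 to 587 and 404 to 515 CPM with 1 called lower. All 6 red cell genes were called lower with all libraries and without WT 3, and at most 1 of them without any other single library. Of the 7 brain and nerve genes, 2 were called lower and 1 higher. Leaving out 1 library moved several of these counts, in either direction. The atrial count was 1 without WT 1 or WT 2 and 5 without WT 3, the ventricular count was 3 without WT 4, and the fibroblast count was 1 without TAZG197V 2 and 5 without TAZG197V 3. The endothelial count was 0 without WT 3 or TAZG197V 2, 1 without WT 2, TAZG197V 1 or TAZG197V 4, and 5 without TAZG197V 3. The adipocyte count was 0 without WT 1, WT 2 or any of TAZG197V 1 to 3, and the macrophage count was 1 without TAZG197V 1 or TAZG197V 4. Over all alternatives, the calls that held throughout were 1 of 4 in the cardiomyocyte list, 4 of 6 in smooth muscle, 1 of 3 in fibroblast, 0 of 2 in endothelial, 1 of 1 in ventricular, 0 of 1 in adipocyte and 1 of 3 in brain and nerve. The part of these cell types in the levels of the 10 genes was not tested. With both number 4 libraries left out, the log2 fold change was -4.22 for Clcn1, -3.80 for Ano5, -0.42 for Ano6 and -0.88 for Ano10.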

How the data were processed

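RNA from hearts of 4 WT and 4 TAZG197V mice was sequenced as single-end reads of TrueSeq libraries. As stated in the methods and labels, the authors split reads by sample with bcl2fastq 2.20.0, checked quality with FastQC 0.11.9, aligned to mm10 with STAR 2.7.3a and counted reads on exons with featureCounts of Subread 2.0.0. The deposited files hold raw counts, whole numbers for each Ensembl gene. The annotation release, strand setting and treatment of multi-mapping reads are not given in the sources used here. The 92 spike-in rows summed to 0 and were left out. Symbols, positions and exon lengths came from GENCODE M21 on GRCm38, which named 55230 of 55471 gene IDs.

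Counts were fitted in R 4.3.3 with edgeR 4.0.16 (filterByExpr, TMM, quasi-likelihood F-test, two-sided) with 2 surrogate variables from svaseq (sva 3.50.0, seed 1, genotype protected). Benjamini-Hochberg adjustment ran over 15084 genes. Calls required an adjusted p under 0.05, a fold change beyond 1.15 in either direction and a mean scaled count of at least 50. SE is the log2 fold change over the square root of its F statistic. P-values measure the spread between these libraries that is left after the 2 surrogate variables, with each library taken as 1 mouse. Without surrogate variables 4192 genes were called. Total counts of at least 23055689 make counting error small except for rare transcripts such as Ano5. No libraries of the same genotype repeated each other, with a chi-square statistic per gene of at least 10.2. The fit was also run on simulated counts with known changes, whose outcome is not reported here, so nothing is read from that run.

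The 10 genes and the related and marker lists were chosen with earlier results of these data known. The text names the 10 genes, Taz, the further ClC and anoctamin genes that were compared (other genes of these families are not reported here), up to 3 called genes per related list with the largest change, the 5 nearest profiles of Clcn1 and of Ano5, and markers that move with a result. Promoter windows came from RefSeq (GRCm38.p6). Alternatives were DESeq2 1.42.0, RLE size factors, no mitochondrially encoded genes, no low-count filter, 0 or 1 surrogate variable, lane or replicate number as covariate, other cut-offs, and libraries left out.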

Additional observations from a re-analysis of the deposited data

Results flagged for a closer look

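Of 38 sets of 4 libraries examined, 9 held a library far from the other 3, where chance alone would give about 1.9. For each, the gap of that library to the nearest other is given as a share of the whole range. Among the 10 genes, Clcn2 was at 5.43 CPM in TAZG197V 4 and 3.38 to 3.64 CPM in the other TAZG197V libraries (0.871), and Clcn7 was at 41.9 CPM in TAZG197V 4 and 45.7 to 46.3 CPM in the others (0.859).

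The other 7 were sums of marker genes. The atrial sum was 1198 CPM in WT 2 against 20.4 to 137 CPM in the other WT libraries (0.901), and 135 CPM in TAZG197V 2 against 35.5 to 46.1 CPM in the other TAZG197V libraries (0.893). The fibroblast sum was 1637 CPM in WT 2 against 1010 to 1079 CPM (0.890), and the endothelial sum was 955 CPM in WT 3 against 688 to 721 CPM (0.875). The red cell sum was 55072 CPM in WT 4 against 346 to 1065 CPM (0.987). The brain and nerve sum was 91.4 CPM in WT 4 against 13.0 to 21.9 CPM (0.887), and 186 CPM in TAZG197V 4 against 10.6 to 12.9 CPM (0.987).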

How the results depend on the processing

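Taz and the 25 genes of the related lists tallied here (17 named by the rule and Lrrc8a, Lrrc8c, Ostm1, Tmem9, Tmem9b, Mbnl1, Celf1 and Dysf) gave 442 values under 17 alternative fits. Of these, 411 kept their side of the adjusted p threshold, 29 lost significance, 15 of them of Lrrc8a, and 2, both of Tmem9b, gained it. The kinases Wnk1, Stk39 and Oxsr1 were not tallied, and Wnk1 gained significance under DESeq2 and without TAZG197V 1. No called gene among them changed direction, and 11 values of Ostm1, Mbnl1 and Celf1, none of them called, changed sign. For the 10 genes, which this contrast chose, the ranges given with their values describe the same libraries refitted. Over all genes the count called went from 5060 to 1843 with a fold change of at least 1.5, and to between 3675 and 4816 when 1 library was left out. Of the 10 genes, 4 were called, against 7 with no low-count filter, 7 with both number 4 libraries left out, and between 3 (without TAZG197V 2) and 7 (without TAZG197V 4) with 1 library left out; the cause was not tested. Of the 67 related genes 28 were called, against 7 with a fold change of at least 1.5 and 17 to 27 with 1 library left out. Same-numbered libraries of the genotypes deviated together at correlations of 0.277, 0.0436, 0.280 and 0.416. For differently numbered libraries the correlations ran from -0.464 to 0.317. These values do not settle whether the numbers pair the mice, and the main fit did not use the numbers as pairs. With the replicate block in place of the surrogate variables, 4272 genes were called, with 4 of the 10 genes and 24 related genes. Counting error limits Ano5 in TAZG197V, at 7 to 9 counts per library.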
